A study of Mus musculus with 6 samples.

Results

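The 10 genes described here belong to the Notch pathway or direct secretory fate in the gut: the ligands Dll1, Dll4 and Jag1, the receptor Notch1, the Hes-family genes Hes1 and Hes6, and the transcription factors Atoh1, Spdef, Gfi1 and Foxa3. They were taken by symbol, not by a threshold on their values, from the 27998 genes of the deposited matrices, and all 10 were present in all 6 libraries. Levels are counts per 1000000 UMIs of a cell class in a library (CPM); a UMI marks 1 captured RNA molecule.

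Notch signalling passes between touching cells: a ligand on the surface of a cell activates the receptor on its neighbour, whose cleaved intracellular part then joins the DNA-binding protein Rbpj and switches on targets such as Hes1. In the intestinal crypt, Hes1 holds back Atoh1 and keeps progenitors on the absorptive path, while a cell that keeps Atoh1 becomes secretory, carries Delta-like ligands and so signals to the cells beside it. Downstream of Atoh1, the factors Spdef, Gfi1 and Foxa3 act in goblet and Paneth cells, and Neurog3 starts the enteroendocrine path.

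The study made single-cell libraries (10x 3' chemistry) of small-intestinal epithelial cells from C57BL/6J mice aged 8 weeks, to ask, by its title, how T cells with the αEβ7 integrin act on the fate of intestinal stem cells. It held 3 wild-type libraries and 3 from Itgb7-/- mice, which lack the β7 integrin subunit; the labels name no other allele and no treatment. They name neither the deleted part of Itgb7 nor the animals behind a library, so a p-value here covers library-to-library spread alone, possibly of technical origin. UMIs of Itgb7 (chr15:102215995-102231944, GRCm38) numbered 3, 8 and 2 in wild-type libraries and 18, 33 and 12 in the others, which goes against the labels, although a 3' tag can lie outside a deleted part and then checks nothing. These libraries are therefore called "labelled Itgb7 KO", and every genotype direction here rests on the labels.

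Promoter sequence is shown for Hes6, the only one of the 9 genes with a listed start site that had an E-box of the form CAGCTG before more than 1 start. CAGCTG is a form of the CANNTG motif bound by basic helix-loop-helix factors, the class to which Atoh1 belongs. Both 40-base stretches are read 5′ to 3′ on the minus strand of chromosome 1 (RefSeq starts, build GRCm38.p6), with the E-box in capitals. The first, at chr1:91414187-91414226, lies 171 bases before a start and outside every annotated exon; the other, at chr1:91413350-91413389, lies 150 bases before an inner start, in an intron of the gene.
Hes6 outer start: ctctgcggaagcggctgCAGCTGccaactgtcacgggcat
Hes6 inner start: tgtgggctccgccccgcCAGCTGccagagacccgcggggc
The RefSeq table listed 12 start sites of 9 of the 10 genes. In the 250 bases before a start, both strands read, CAGCTG (the same on either strand) stood in 3 of the 9 genes (Hes6, Jag1 and Dll1), beside 13% of all 32851 promoters of the table. CAGATG stood in 0 of 9, beside 14.4% of all promoters. The Rbpj core TGGGAA stood in 1 of 9, Spdef, beside 21.6%, and the E-box CACGTG in 0 of 9, beside 6.02%. A gene was counted if any of its listed starts had the motif, while the 32851 promoters were counted singly. A gene with more than 1 start thus had more chances of a match, so these shares are not like for like. No match overlapped one of another motif, and a match is a description of letters, not a binding site.

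Of 26153 barcodes, 25076 (95.9%) were kept. Clusters were named from marker genes: 3034 stem-like cells, 7748 transit-amplifying-like cells (TA, the dividing progenitors), 4289 goblet-like and 290 Paneth-like cells. Library totals ran from 28475253 to 76133693 UMIs. Wild-type 1 and labelled KO 1 stood apart from the other 4 libraries: their medians were 22384 and 19529 UMIs per barcode against 6079.5 to 12103, and Paneth markers made 82543 and 50657 CPM against 2761 to 3632 over all kept cells. T-cell markers made 1.01 to 3.47 CPM. The 3 units used below beside the classes were set after the clusters were seen: the Atoh1-led goblet-like clusters (1334 cells, against 2955 other goblet-like cells), the Lgr5-led stem-like cluster (1011 cells), and a cluster of 316 cells led by Sox4, Neurog3, Insm1 and Dll1, which stayed unnamed. The larger stem-like cluster (2023 cells), led by Ifitm3, Amica1 and Cdca7, had 2 stem markers and 1 TA marker among its first 10 genes. The Lgr5-led cluster had 5 stem markers there. With doublets kept, a cluster of 1206 cells led by Ifitm3, Cdca7 and Amica1 was named TA-like. The stem-like name is thus less secure for the larger cluster, and values of all stem-like cells include it. The clusters were built from the same cells, members included, so levels across classes are a description with no test.

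Delta ligands were most abundant in the secretory cells. Dll1 (ENSMUSG00000014773, chr17:15367354-15376872, minus strand), a main Notch ligand of the crypt, stood in goblet-like cells at 70.8, 127 and 93.3 CPM in wild-type libraries 1 to 3 and at 77.1, 136 and 190.0 CPM in labelled KO libraries 1 to 3. In the Neurog3-led cluster it stood at 188, 270.3 and 246 CPM and at 160.4, 299 and 381 CPM, in the same order. That cluster had the top mean for Dll1, 257 ± 79.5 CPM (SD, n = 6 libraries), above the Atoh1-led goblet-like cells (143 ± 67.4 CPM) in 6 of 6 libraries, with a geometric mean ratio of 1.90, although the ranges overlapped. A Dll1 UMI was present in 85.5% to 96.0% of its cells per library. Between the other goblet-like cells (102 ± 35.5 CPM) and the enteroendocrine-like cells (39.1 ± 16.5 CPM) the ranges did not overlap.

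In stem-like cells Dll1 was lower, at 6.86, 13.001 and 11.9 CPM in wild-type and 10.6, 16.5 and 16.6 CPM in labelled KO libraries, and goblet-like cells held 9.04 times as much (geometric mean, range 7.29 to 11.4, higher in 6 of 6 libraries). TA-like cells held 7.73 ± 1.80 CPM and mature enterocyte-like cells 10.3 ± 2.06 CPM (SD, n = 6 each). Depth differs between libraries, so shares of cells with a UMI were also taken after every cell was thinned to 3000 UMIs. On that scale 1.81% of wild-type and 2.85% of labelled KO TA-like cells had a Dll1 UMI, against 2.69% and 3.22% of mature enterocyte-like cells, so the TA share did not lie above that of the mature enterocyte-like cells. In stem-like cells the shares were 3.43% and 4.58%. TA-like cells with an Atoh1 UMI were too few for a test (8 in wild-type 1); Dll1 was found in 1 of 8, 0 of 18 and 1 of 21 of them in wild-type and in 1 of 16, 4 of 19 and 7 of 20 in labelled KO libraries. Among TA-like cells without Atoh1 the share with Dll1 was 1.08% to 3.11% per library.

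Dll4 (ENSMUSG00000027314, chr2:119325784-119335962, plus strand), the other Delta ligand, was also a gene of the secretory cells. It stood in goblet-like cells at 24.8, 26.0 and 23.5 CPM in wild-type and at 29.2, 26.6 and 28.5 CPM in labelled KO libraries, so the lowest labelled KO value lay just above the highest wild-type value. In stem-like cells it stood at 2.74, 2.55 and 3.21 CPM and at 1.94, 2.38 and 1.82 CPM, from 16, 19 and 20 and from 9, 13 and 6 UMIs, and here the labelled KO libraries lay below. Goblet-like cells held 11.009 times as much as stem-like cells (geometric mean, higher in 6 of 6 libraries). Its mean was 32.9 ± 4.39 CPM in the Neurog3-led cluster, 28.1 ± 2.172 CPM in the Atoh1-led goblet-like cells and 28.1 ± 11.7 CPM in enteroendocrine-like cells (SD, n = 6 each), with overlapping ranges. Single clusters had higher means: 41.3 CPM in an enteroendocrine-like cluster led by Tac1 and 34.4 CPM in a goblet-like cluster led by Cldn4.

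Jag1 (ENSMUSG00000027276, chr2:137081456-137116644, minus strand), a ligand of the Jagged type, ran the other way. Its mean was 8.87 ± 2.66 CPM in TA-like, 6.30 ± 4.06 CPM in stem-like and 3.12 ± 0.953 CPM in goblet-like cells (SD, n = 6 each). The order of classes was not clear of the spread for Jag1: every step between neighbouring classes in the order of means overlapped. Labelled KO 3 was the high library in stem-like cells, at 13.9 CPM against 2.16 to 6.59 CPM in the other 5.

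**Figure D1:**
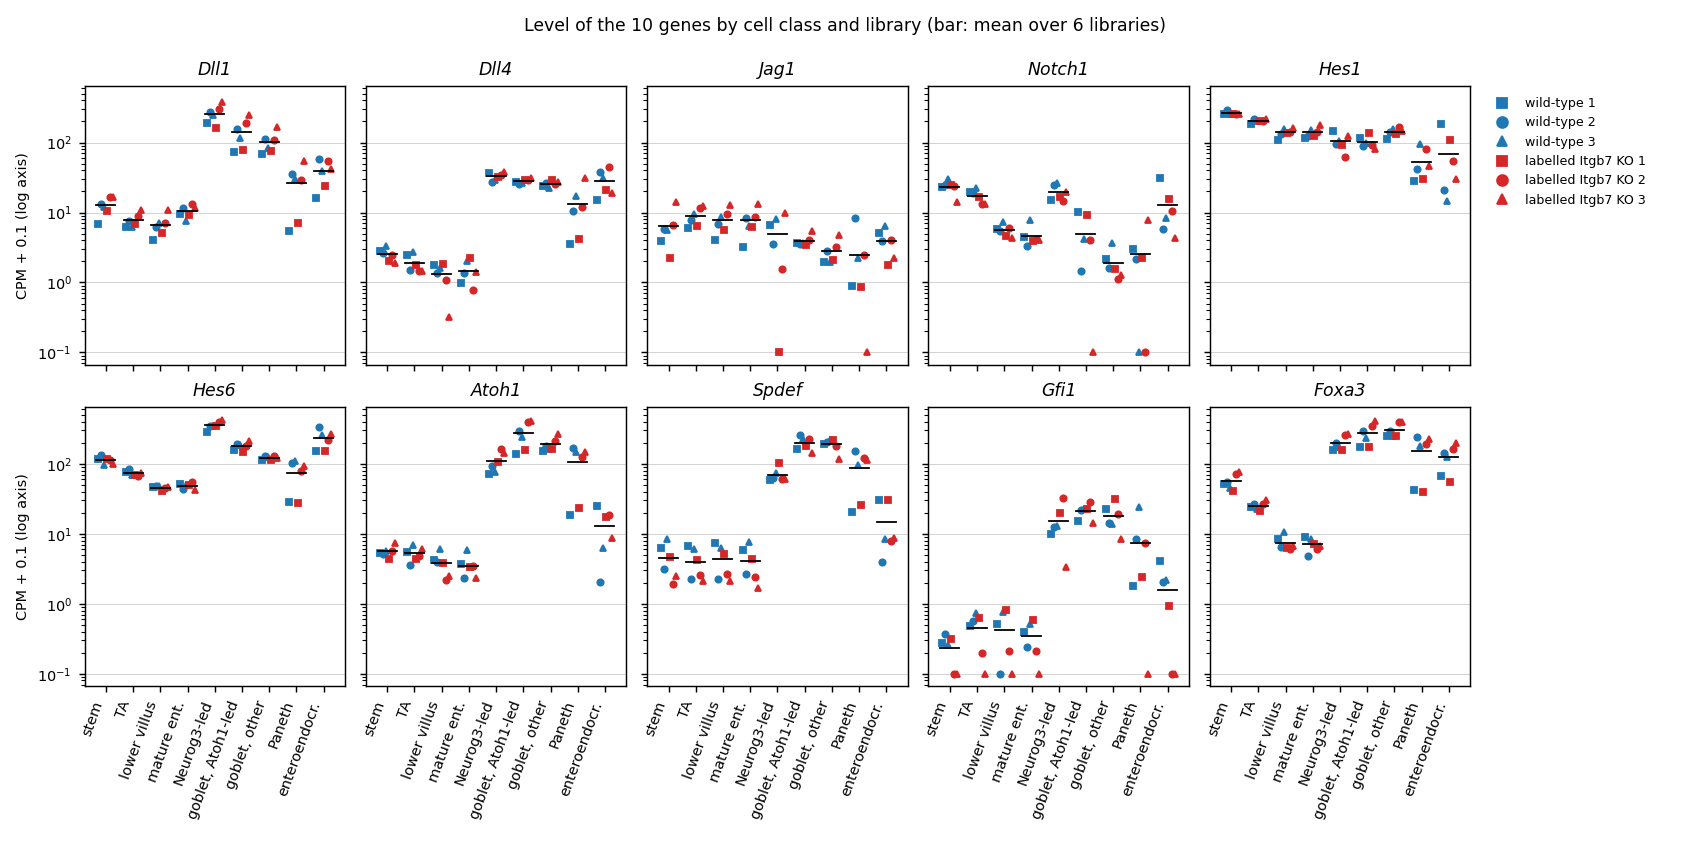
Level of each gene (CPM + 0.1, log axis) in 9 cell groups, with 1 point per library (blue for wild-type, red for labelled Itgb7 KO, shapes for library numbers) and a bar for the mean over 6 libraries. Delta ligands, Atoh1, Spdef, Gfi1 and Foxa3 sit higher in goblet-like cells than in stem-like cells, Notch1 and Hes1 sit lower, and in Paneth-like cells the squares (wild-type 1 and labelled KO 1) lie below the other points for Atoh1, Spdef and Foxa3.

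Notch1 (ENSMUSG00000026923, chr2:26457903-26516663, minus strand), the receptor, was a gene of the stem and progenitor cells. In stem-like cells it stood at 23.3, 24.3 and 30.5 CPM in wild-type and 24.8, 23.6 and 13.9 CPM in labelled KO libraries. Goblet-like cells held 5.35, 1.47 and 3.75 CPM and 4.77, 2.02 and 0.821 CPM, so stem-like cells were higher by a geometric mean ratio of 9.19 (range 4.36 to 16.9, 6 of 6 libraries). The Neurog3-led cluster kept receptor transcript beside its ligands, at 19.3 ± 5.01 CPM, close to the 17.4 ± 3.68 CPM of TA-like cells (SD, n = 6 each). At 3000 UMIs per cell, 8.30% of wild-type and 6.71% of labelled KO stem-like cells had a Notch1 UMI, against 1.53% and 1.18% of mature enterocyte-like cells.

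Hes1 (ENSMUSG00000022528, chr16:30064384-30067796, plus strand), the Notch target that represses Atoh1, had its highest class mean in the stem-like cells. In stem-like cells it stood at 254, 289 and 253 CPM in wild-type and 255, 257 and 259.9 CPM in labelled KO libraries. TA-like cells held 183, 214 and 204 CPM and 203, 205 and 218 CPM, and goblet-like cells 114, 123 and 138 CPM and 135, 142 and 127 CPM. Neither the step from stem-like to TA-like cells (ratio 1.28) nor that from TA-like to the other goblet-like cells overlapped in range. Single clusters crossed the step from stem-like to TA-like cells. TA-like clusters led by Ascl2 and by Ung held 305.5 and 254.9 CPM. The larger stem-like cluster (2023 cells) held 233.3 CPM. The Atoh1-led goblet-like cells held 102 ± 19.99 CPM (SD, n = 6), lower than stem-like cells by a ratio of 2.59 (range 1.89 to 3.18, 6 of 6 libraries). Inside the goblet-like class the other cells held more Hes1 than the Atoh1-led cells in only 4 of 6 libraries, and those ranges overlapped. Hes1 averaged 329.7 ± 39.8 CPM in the Lgr5-led stem-like cluster and 53.5 ± 27.6 CPM in Paneth-like cells (SD, n = 6 each).

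Hes6 (ENSMUSG00000067071, chr1:91411483-91414038, minus strand), a Hes-family gene known to counter Hes1 in other tissues, peaked where Hes1 did not. The Neurog3-led cluster held 286, 347 and 342 CPM in wild-type and 350.1, 399 and 426 CPM in labelled KO libraries. Stem-like cells held 118, 132 and 97.4 CPM and 118, 113 and 100.4 CPM, a geometric mean ratio of 3.16 between these groups of cells (6 of 6 libraries). Within the goblet-like class Hes6 was higher in the Atoh1-led cells (179 ± 24.2 CPM) than in the rest (122 ± 6.89 CPM; SD, n = 6 each), and the ranges did not overlap.

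Atoh1 (ENSMUSG00000073043, chr6:64729125-64731245, plus strand), the factor that commits a cell to the secretory lineage, stood in goblet-like cells at 147, 219.9 and 190.2 CPM in wild-type and 161, 276 and 313 CPM in labelled KO libraries. Stem-like cells held 5.14, 5.09 and 5.62 CPM and 4.32, 5.49 and 7.26 CPM, and TA-like cells 5.13 ± 1.18 CPM (SD, n = 6). Goblet-like cells thus held 38.8 times the stem-like level (range 28.6 to 50.3, 6 of 6 libraries). An Atoh1 UMI was found in 72.2% to 89.6% of goblet-like cells per library and in 3.60% to 9.78% of stem-like cells. After thinning, 1.48% of wild-type and 1.67% of labelled KO stem-like cells had one, against 1.001% and 0.659% of mature enterocyte-like cells, which are not known to express the gene. Median depths were 5403 to 19210 UMIs per stem-like cell and 6505.5 to 20912 per mature enterocyte-like cell.

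Spdef (ENSMUSG00000024215, chr17:27714352-27728955, minus strand), which drives goblet maturation, followed Atoh1. In goblet-like cells it stood at 182, 226 and 221 CPM in wild-type and 201, 197 and 126 CPM in labelled KO libraries, and labelled KO 3 was the low library. Stem-like cells held 6.17, 3.08 and 8.18 CPM and 4.54, 1.83 and 2.42 CPM. The goblet-like level was 49.4 times the stem-like one (range 27.1 to 107, 6 of 6 libraries).

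Gfi1 (ENSMUSG00000029275, chr5:107716657-107726036, minus strand), which holds secretory cells away from the enteroendocrine path, was close to absent outside the goblet-like, Paneth-like and Neurog3-led cells. In goblet-like cells it stood at 19.4, 16.7 and 16.6 CPM in wild-type and 27.5, 22.4 and 10.1 CPM in labelled KO libraries. All stem-like cells together gave 5 Gfi1 UMIs. In labelled KO 2 none of 666 stem-like cells had one, which allows a share of up to 0.450% (counting error only), and in labelled KO 3 none of 608, which allows up to 0.493%.

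Foxa3 (ENSMUSG00000040891, chr7:19013284-19023538, minus strand), a forkhead factor of goblet and enteroendocrine cells, differed from the other secretory factors in that stem-like cells held a substantial level. It stood in goblet-like cells at 219, 296 and 248 CPM in wild-type and 216, 377 and 397 CPM in labelled KO libraries. In stem-like cells it stood at 51.6, 54.8 and 45.7 CPM and at 41.0, 72.4 and 75.6 CPM, so goblet-like cells held 5.11 times as much (6 of 6 libraries). TA-like cells held 25.1 ± 3.42 CPM and lower-villus enterocyte-like cells 7.30 ± 1.73 CPM (SD, n = 6 each), and neither step down from stem-like cells overlapped in range. Here too single clusters crossed the first step. TA-like clusters led by Ascl2 and by Ung held 64.5 and 58.3 CPM, against 38.0 CPM in the larger stem-like cluster. The Lgr5-led cluster held 1.76 times the level of all stem-like cells (6 of 6 libraries), at 102 ± 33.5 CPM. At 3000 UMIs per cell, 14.4% of wild-type and 17.2% of labelled KO stem-like cells had a Foxa3 UMI, against 1.70% and 1.72% of mature enterocyte-like cells.

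Paneth-like cells split by library for most of the 10 genes. Atoh1 stood there at 18.3 CPM in wild-type 1 and 23.4 CPM in labelled KO 1, and at 125 to 167 CPM in the other 4 libraries. Spdef stood at 20.6 and 25.5 CPM against 97.6 to 151 CPM, and Foxa3 at 41.6 and 39.7 CPM against 180.0 to 239 CPM. Both low libraries were those in which Paneth markers took 53.0% and 50.7% of the UMIs of Paneth-like cells, against 18.8% to 27.6% in the rest; the part of this share in the lower CPM was not tested. Paneth markers also took 0.912% and 0.455% of the UMIs of stem-like cells in those libraries against 0.0329% to 0.0455%, and 2.32% and 1.67% of those of goblet-like cells against 0.833% to 1.19%. Goblet-like cells held more Atoh1 than Paneth-like cells in 6 of 6 libraries, by 1.27 to 8.06 times.

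The profiles over the 27 clusters placed the 10 genes in groups. As a description (Pearson's r of log2(CPM + 1) over 27 clusters that share the 6 libraries and their depths), Atoh1 went with Spdef (r = 0.983) and Gfi1 (r = 0.964), and Dll1 with Dll4 (r = 0.932). Hes1 had r = 0.618 with Jag1, 0.453 with Notch1 and −0.564 with Dll4. Among 5224 other genes, the profile most like both Atoh1 (r = 0.981) and Spdef (r = 0.988) was that of Ern2, a stress sensor of the endoplasmic reticulum in mucus-producing cells. Pdia5 was most like Gfi1 (r = 0.964), Gcnt3 most like Dll1 (r = 0.931) and Rab15 most like Dll4 (r = 0.953) and Foxa3 (r = 0.959). Amica1 was most like Notch1 (r = 0.930), Marcksl1 most like Hes6 (r = 0.935), Kdsr most like Jag1 (r = 0.879) and Rpl22l1 most like Hes1 (r = 0.824).

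Whether ligand and target lay in the same cell was asked next, at 3000 UMIs per cell. In stem-like cells, 45.3% ± 1.07 had Hes1 and no Delta ligand (Dll1 or Dll4), 1.94% ± 0.431 a ligand and no Hes1, and 2.71% ± 0.992 both (SD, n = 6 libraries), where independence within each library would give 2.24% on average. In the Atoh1-led goblet-like cells the order turned, with 31.7% ± 6.71 ligand only, 14.2% ± 4.27 Hes1 only and 9.15% ± 2.95 both, beside 9.47% under independence. The Neurog3-led cluster went furthest, with 46.1% ± 12.4 ligand only, 9.71% ± 2.41 Hes1 only and 13.8% ± 5.44 both, beside 13.9%. Mature enterocyte-like cells, as a comparison, had 31.1% ± 2.80 Hes1 only and 2.14% ± 0.350 ligand only. The classes therefore differed in how many cells carried ligand or target. In stem-like, Atoh1-led goblet-like and Neurog3-led cells the mean share with both differed from that under independence by less than its SD over libraries. That SD is not the spread of the difference within a library, so it cannot decide whether ligand and target were independent. In stem-like cells the share with both lay above independence in 5 of 6 libraries, with 4.31% against 2.88% in labelled KO 1. In all goblet-like cells together it lay below independence in every library but wild-type 1. It was 9.56% against 10.6% in wild-type 2, and 7.41% against 7.09% in wild-type 1. These differences were not tested.

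**Figure D2:**
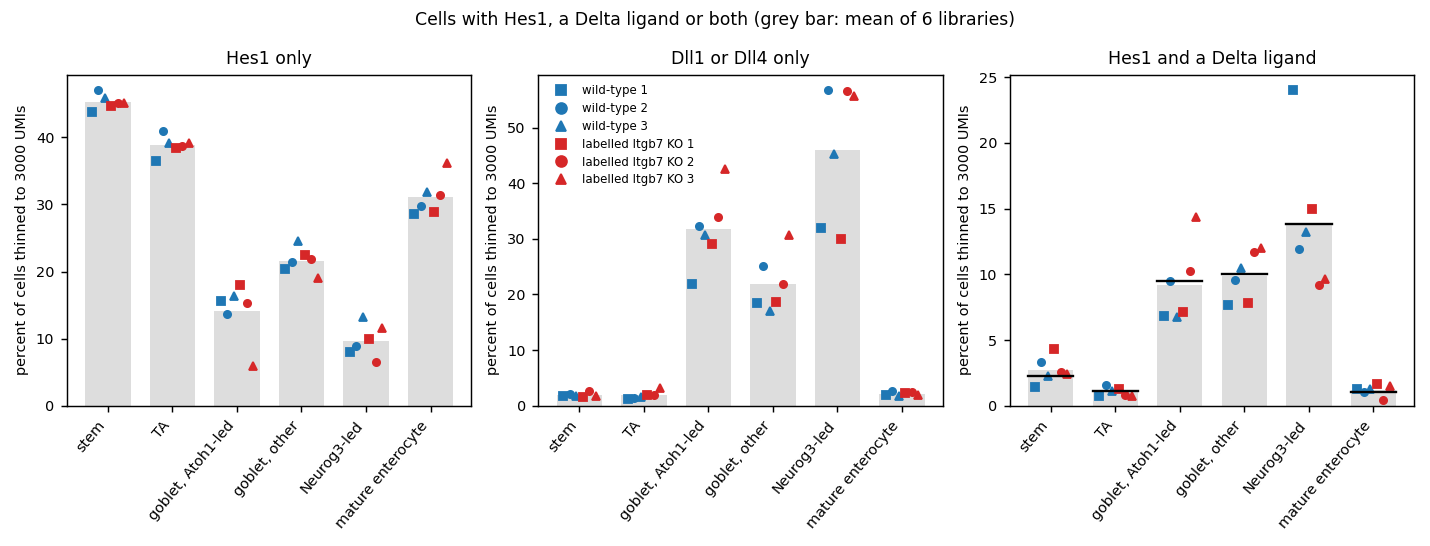
Percent of cells (thinned to 3000 UMIs) with Hes1 only, with Dll1 or Dll4 only, and with both, in 6 cell groups; points are libraries, grey bars the mean of 6, and black lines in the right panel the mean share expected under independence within a library. Hes1-only cells make 45.3% of stem-like and 14.2% of Atoh1-led goblet-like cells, ligand-only cells 1.94% and 31.7%, and the bars of the right panel end near the black lines.

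Of 42 gene pairs and classes set for a test, 20 had at least 10 cells on each side in every library. For each, the share of cells with the second gene was compared between cells with and without the first (exact 2-sided sign-flip permutation test over 6 libraries, smallest possible p = 0.031). No pair passed after Benjamini-Hochberg adjustment over the 20, and the smallest adjusted p was 0.156. With 6 libraries a pair could pass only if most of the 20 reached the smallest p together. The lack of a pass therefore cannot decide whether any single pair was related. The 4 pairs at the smallest p had the same sign in 6 of 6 libraries. Of goblet-like cells with Atoh1, 44.6% had Spdef against 39.1% of those without (difference 5.52 ± 3.62 percentage points, SD, n = 6, exact permutation p = 0.031). In single libraries this difference ran from 3.03 points in wild-type 2 (45.9% against 42.9%) to 12.7 points in labelled KO 3 (35.9% against 23.2%). Dll1 was found in 31.4% of goblet-like cells with Atoh1 against 27.1% without (4.35 ± 2.27 points), and Foxa3 in 60.1% of those with Spdef against 55.8% without (4.38 ± 2.73 points). Among TA-like cells, Hes1 was found in 43.6% of those with Hes6 against 39.0% without (4.60 ± 2.21 points). Inside the Atoh1-led cells alone, the Atoh1 and Spdef difference was 10.2 ± 6.45 points (6 of 6 libraries), that of Atoh1 and Dll1 5.80 ± 9.34 (5 of 6) and that of Spdef and Foxa3 4.03 ± 4.38 (4 of 6).

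Hes1 was not detectably lower in goblet-like cells that carried a ligand or Atoh1. With Dll1, 27.8% had Hes1 against 29.5% without (difference −1.69 ± 2.5002 percentage points, SD, n = 6, exact sign-flip permutation p = 0.219). For Dll4 the difference was −2.83 ± 4.08 points (exact permutation p = 0.188, n = 6) and for Atoh1 −1.09 ± 3.40 points (exact permutation p = 0.469, n = 6). In TA-like cells the difference for Dll1 was −6.34 ± 11.6 points, and labelled KO 3 alone gave −24.9. Stem-like cells with Dll1 were too few for the test, with 5 in wild-type 1; they had Hes1 in 52.6% to 71.4% per library, against 45.02% to 49.8% of those without. The signs for Dll1, Dll4 and Atoh1 in goblet-like cells turned to 0.00290, 0.849 and 0.670 points when doublets were kept.

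The difference of Hes1 by Atoh1 in goblet-like cells was −4.70, −2.14 and −5.10 percentage points in wild-type and 1.23, 1.12 and 3.07 points in labelled KO libraries, so the signs were opposite in the 2 groups of libraries. For Hes1 by Dll4 it was 2.74, −1.38 and 0.34 points against −6.50, −7.72 and −4.47 points, without overlap. These were 2 of 6 pairs, of the 20, that reached p = 0.1 between genotypes, the smallest that 3 against 3 libraries allow (exact 2-sided permutation test), and none can pass adjustment. The pairs share cells and genes, so they are not independent tests. Over all 6 libraries the mean difference of Hes1 by Dll4 turned to 2.00 points at 6000 UMIs per cell.

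**Figure D3:**
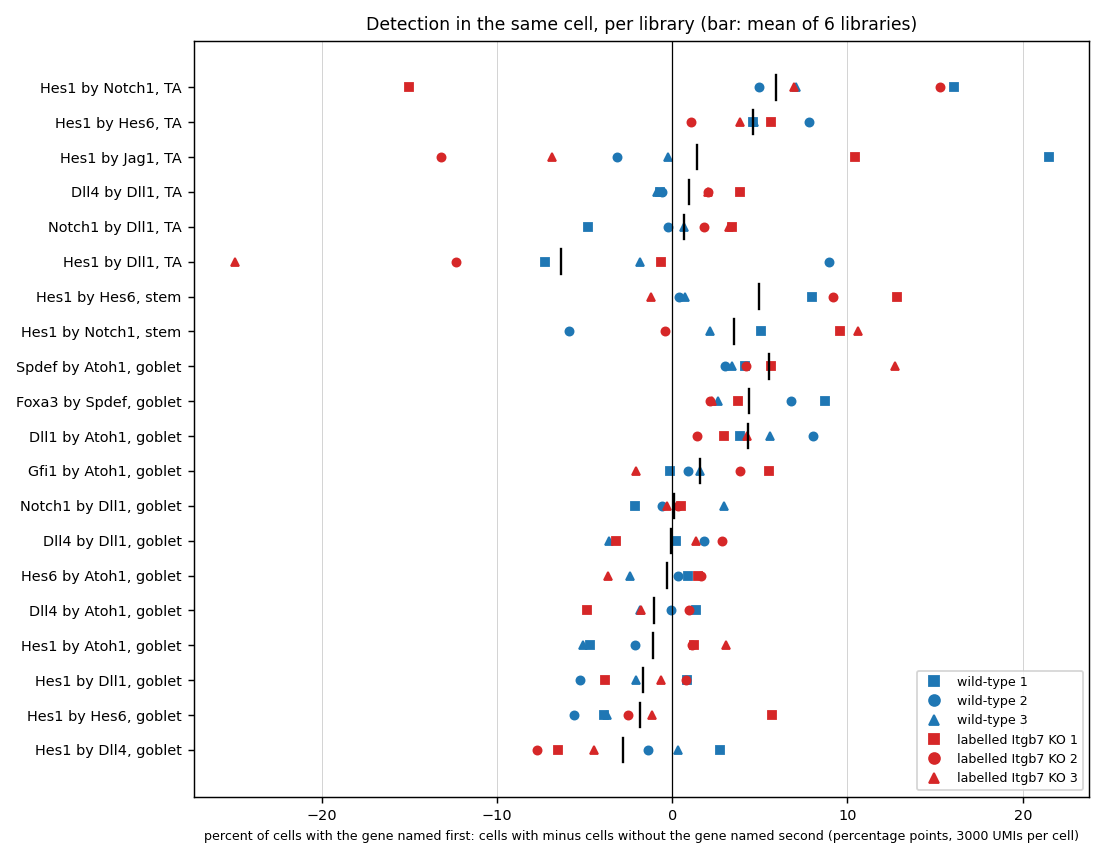
Difference, in percentage points, in the percent of cells with the gene named first between cells with and without the gene named second (cells thinned to 3000 UMIs), for the 20 pairs and classes tested; points are libraries and black bars the mean of 6. All 6 points lie right of 0 for Spdef by Atoh1, Foxa3 by Spdef and Dll1 by Atoh1 in goblet-like cells and for Hes1 by Hes6 in TA-like cells, and the points straddle 0 for Hes1 by Dll1, Dll4 or Atoh1.

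Between genotypes, none of the 10 genes was called different in any class (edgeR quasi-likelihood test on UMIs summed per library and class, 3 against 3 libraries, Benjamini-Hochberg adjusted over all genes tested, threshold 0.05). DESeq2 also called 0 of them. The share of all genes that edgeR called was 0% in stem-like, 0.00838% in TA-like, 0.00905% in goblet-like, 0.00939% in lower-villus, 0% in Paneth-like, enteroendocrine-like and mature enterocyte-like cells and the Neurog3-led cluster and 0.00738% in all kept cells, so the members' count of 0 is near the background. The gene called in TA-like, goblet-like, lower-villus and all kept cells was in each case Agpat4, a lipid enzyme named here after its values were seen, which fell by 2.99, 2.49, 3.20 and 2.98 on the log2 scale. At an unadjusted p under 0.05, edgeR gave 0 members in stem-like, goblet-like and Paneth-like cells, beside 3.14%, 2.11% and 0.603% of all genes. With the replicate number as a block, 1 gene was called in stem-like, 2 in goblet-like and 10 in the Neurog3-led cells, none of them among the 10 genes. Fold changes are given as log2, labelled KO over wild-type, ± SE.

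In goblet-like cells 8 of the 10 genes tested had a positive fold change, with a median of 0.23 against 0.00 for all genes tested. Dll1 stood at 0.50 ± 0.33 (SE), Atoh1 at 0.46 ± 0.25, Foxa3 at 0.40 ± 0.24 and Spdef at −0.24 ± 0.19 (edgeR adjusted p = 0.9998 for each). The pair of libraries that stood apart gave smaller values than the other 4: 0.13 against 0.52 for Atoh1, 0.12 against 0.56 for Dll1 and −0.02 against 0.51 for Foxa3, while Spdef was 0.14 in the pair and −0.47 in the other 4. This split of the libraries was chosen after the data were seen, and its differences were not tested. The share of all genes with such differences was not counted, so nothing is read from the directions in the other 4 libraries. Depth followed genotype in these 4. The median per goblet-like cell was 11213.5 and 11645 UMIs in wild-type 2 and 3, and 8682 and 5946 in labelled KO 2 and 3. The part of depth in these values was not tested. Of the other genes in goblet-like cells, Hes1 stood at 0.13 ± 0.12, Hes6 at 0.01 ± 0.13, Gfi1 at 0.25 ± 0.30, Jag1 at 0.40 ± 0.31 and Notch1 at −0.28 ± 0.59.

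Dll4 was the 1 gene of the 10 whose groups did not overlap in goblet-like cells (all labelled KO libraries above; 2.61% of all genes tested lay that way and 4.01% the other). Its fold change was 0.21 ± 0.13 (SE, edgeR adjusted p = 0.9998). After thinning, 7.87%, 7.11% and 7.12% of wild-type and 9.20%, 8.45% and 8.46% of labelled KO goblet-like cells had a Dll4 UMI (exact 2-sided permutation test over libraries, p = 0.1, the smallest possible, which adjustment over the 10 genes takes to 1). The Atoh1-led cells are a part of these goblet-like cells, picked after the clusters were seen, and so give no separate support. Their shares were 7.80%, 8.68% and 7.50% against 11.8%, 12.3% and 11.4%, without overlap (p = 0.1 by the same exact permutation test, before adjustment). The CPM of Dll4 did not overlap there either (2.92% of all genes lay above). Its fold change there was 0.17 ± 0.16 (SE, edgeR adjusted p = 0.9996). In stem-like cells Dll4 was the 1 gene of 9 tested with the CPM of all labelled KO libraries below all wild-type ones (4.52% of all genes lay that way and 3.36% above). Its fold change there was −0.46 ± 0.28 (SE, edgeR adjusted p = 0.965), and turned to 0.09 when the clusters were built without the 10 genes and the pathway lists. After thinning, 1.45%, 0.581% and 0.372% of wild-type and 0.784%, 0.902% and 0.509% of labelled KO stem-like cells had a Dll4 UMI, and these groups overlapped.

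In stem-like cells 4 of 9 genes tested had a positive fold change (median −0.05, all genes 0.00; smallest adjusted p 0.965, edgeR). Hes1 stood at −0.05 ± 0.12 (SE), Notch1 at −0.32 ± 0.22, Dll1 at 0.43 ± 0.26, Foxa3 at 0.29 ± 0.20 and Spdef at −0.98 ± 0.48, the last from 8 to 51 UMIs per library. The thinned share of stem-like cells with Hes1 was 47.9% ± 2.54 in wild-type and 48.1% ± 0.820 in labelled KO libraries (SD, n = 3 each; exact permutation p = 1.0). The Hes1 level of the stem and progenitor cells thus differed between genotypes by less than its standard error.

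Notch1 was the gene with the lowest unadjusted p in TA-like cells. It stood there at 19.8, 18.8 and 22.4 CPM in wild-type and 16.6, 13.3 and 13.2 CPM in labelled KO libraries, without overlap (4.3% of all genes tested lay below in this way and 2.98% above). The fold change was −0.50 ± 0.17 (SE, edgeR adjusted p = 0.943). It was the 1 of 9 members with an unadjusted p under 0.05, beside 2.84% of all genes tested. The pair that stood apart gave −0.25 and the other 4 libraries −0.64. In all kept cells Notch1 stood at 11.6, 12.7 and 14.3 CPM against 10.6, 10.1 and 8.39 CPM, again without overlap (2.89% of all genes lay below and 2.6% above), a fold change of −0.43 ± 0.16 (edgeR adjusted p = 0.952), and 1 of 10 members, Notch1, and 3.21% of all genes had an unadjusted p under 0.05. Over its alternatives the adjusted p of Notch1 in TA-like cells ran from 0.185, without labelled KO 1, to 0.999997, in DESeq2. Of the other genes in TA-like cells, Hes1 stood at 0.05 ± 0.11, Dll1 at 0.38 ± 0.19, Dll4 at −0.56 ± 0.32 and Spdef at −0.72 ± 0.48.

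In the Neurog3-led cluster Atoh1 stood at 71.4, 92.7 and 76.1 CPM in wild-type and 105, 162 and 144 CPM in labelled KO libraries, from 25 to 76 cells per library. Hes6 and Atoh1, 2 of 8 genes tested, had all labelled KO libraries above (3.81% of all genes tested lay that way and 3.2% below). The fold change of Atoh1 was 0.71 ± 0.20 (SE, edgeR adjusted p = 0.9999); it was the 1 of 8 members with an unadjusted p under 0.05, beside 2.58% of all genes. It did not hold when the clusters were built without the 10 genes and the lists: in the matching cluster of 5 libraries it was −0.37. The adjusted p ran from 0.149 to 0.99997 over the alternatives. With the replicate block, edgeR called 10 genes here, 6 higher and 4 lower, where the main fit called 0. Of these, Insm1, a gene of early enteroendocrine cells that also led the cluster, rose by 1.38 on the log2 scale (edgeR adjusted p = 0.0052). The goblet and Paneth products Zg16, Muc2 and Ang4 fell by 1.27, 1.54 and 1.29 (edgeR adjusted p of at most 0.0061). The other genes called are not named here, so these 4 do not describe the whole. Without the block these 4 genes did not pass. The block pairs libraries by number, although only number 1 stood out as correlated. Paneth markers took 0.884% of the UMIs of this cluster in wild-type 1 and 0.451% in labelled KO 1, against 0.0679% to 0.105% in the other 4 libraries; their part in these values was not tested.

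In Paneth-like cells 6 genes could be tested, 4 with a positive fold change, with standard errors of 0.27 to 0.52 from 21 to 96 cells per library. Atoh1 stood at −0.13 ± 0.52 (SE) and Spdef at 0.05 ± 0.43 (edgeR adjusted p = 0.9999 for both).

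**Figure D4:**
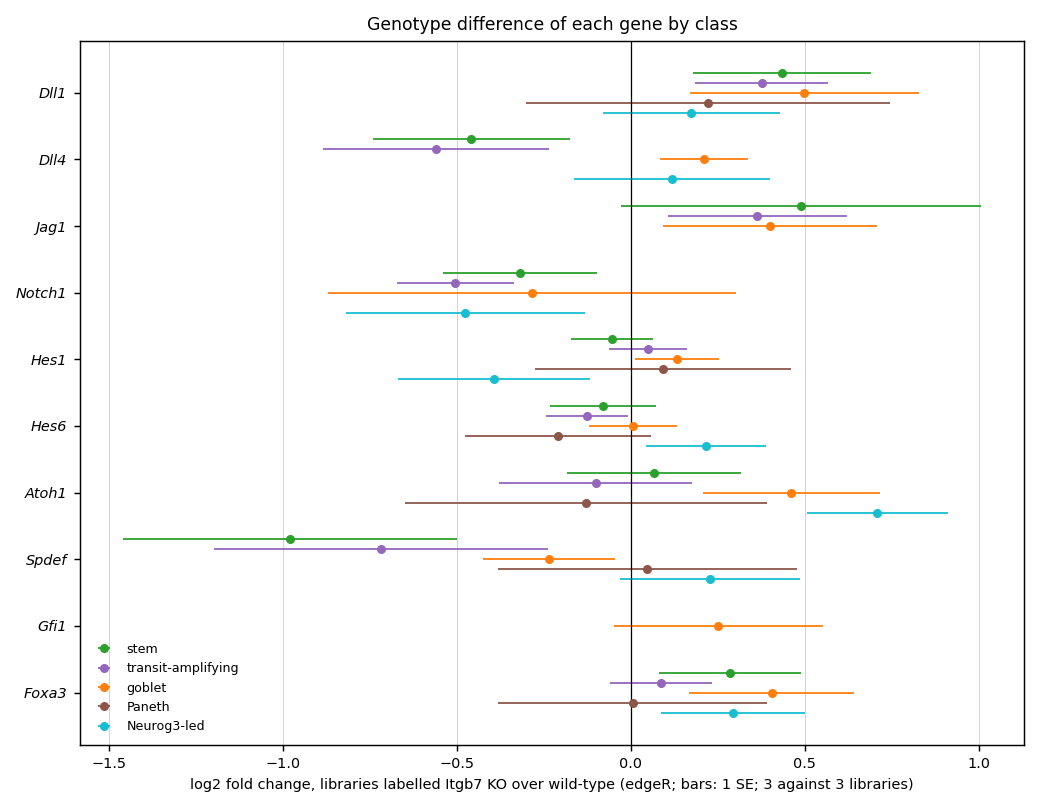
Log2 fold change of each gene, libraries labelled Itgb7 KO over wild-type, in 5 cell groups (edgeR, points with bars of 1 SE, 3 against 3 libraries; genes below the count filter of a group have no point). Dll1, Atoh1 and Foxa3 lie right of 0 and Spdef left of 0 in goblet-like cells, the Notch1 points lie left of 0 in all 4 groups where it was tested, and none of the differences passed adjustment.

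The wider pathway, from lists drawn up for these data with earlier results known, gave no call in the same fits. The lists of ligands and receptors, of targets and of secretory regulators hold all 10 genes between them. Their medians therefore partly repeat the fold changes given above. Of the 10 Notch ligands and receptors, 6 were tested in stem-like cells (4 positive, median 0.25), 6 in TA-like cells (4 positive, median 0.22) and 7 in goblet-like cells (5 positive, median 0.40). Of 12 Notch targets 5 were tested in each, with medians of −0.08, −0.07 and 0.01. Of 35 processing genes and modulators, 27, 29 and 29 were tested, with medians of −0.01, −0.12 and −0.06. Of 24 secretory fate regulators 6 of 16 tested were positive in stem-like, 6 of 20 in TA-like and 14 of 19 in goblet-like cells (medians −0.08, −0.11 and 0.12), and 11, 12 and 12 of 12 absorptive regulators were tested with medians of −0.06, −0.01 and −0.02. All genes tested had medians of 0.00 in these classes, and edgeR called 0 of the listed genes in any of them.

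The 14 goblet and Paneth products were negative in all 14 cases in stem-like and in TA-like cells, each with a median of −0.83. All 14 were also negative in lower-villus (median −0.89) and mature enterocyte-like cells (−0.86), so this was not particular to progenitors. In the Neurog3-led cluster 1 of 14 was positive (−0.53), and in enteroendocrine-like cells 2 of 13 (−0.28). In goblet-like cells 9 of 14 were positive, with a median of 0.02, and in Paneth-like cells 9 of 14 (0.09). None of these was called by edgeR, and 0 had an unadjusted p under 0.05 in stem-like, TA-like and goblet-like cells. In mature enterocyte-like cells 1 had such a p, beside 393 of all 10217 genes tested. In the Neurog3-led cluster 4 had, beside 2.58% of all genes. The Paneth marker share of UMIs in stem-like and TA-like cells moved with the same libraries (0.912% and 0.834% in wild-type 1, 0.455% and 0.406% in labelled KO 1); its part in these negative values was not tested.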

How the data were processed

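Each matrix deposited by the authors holds raw UMI counts of every gene in every barcode. The submitters' processing notes name Cell Ranger 2.1.1, bcl2fastq 2.17.1.14, Seurat without a version, and the build mm10 (GRCm38). Barcodes under 500 genes, under 1000 UMIs or over 25% mitochondrial UMIs were dropped (3, 0 and 107 failed). The automatic doublet threshold marked under 0.5% in 5 of 6 libraries, so the highest-scoring 0.8% per 1000 barcodes were removed (969). Of the barcode sequences, 410 occurred in more than 1 library (12 to 42 per pair of libraries). Cells were clustered with scanpy 1.11.5 (2000 variable genes, 30 components, 15 neighbours, resolution 1.5). Before the neighbours were found, the components were corrected for library by a Harmony-type step (soft clusters, then ridge regression). Genotype is fixed within a library, so this step can also reduce genotype differences in the space that defined the clusters. The UMI counts themselves were not corrected. A cluster was named from at least 3 class markers among its first 50 genes. The TA-like class holds a cluster that tied with stem markers. The names are rebuilt, since no deposited annotation was used.

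UMIs were summed per library and class (at least 20 cells) and tested with edgeR 4.0.16 in R 4.3.3 (glmQLFit, TMM, filterByExpr), with genotype as the only term, on all genes. Exact permutation tests over libraries were used for thinned shares (3000 UMIs per cell; 0 to 73 cells per class and library were too shallow) and pairs. The settings tried in their place are given in the closing section. Libraries of the same number had correlated deviations from the group means (0.58, 0.22 and 0.14 in stem-like, 0.62, 0.25 and 0.14 in TA-like and 0.60, 0.19 and 0.18 in goblet-like cells), each over 0.1. Wild-type 2 correlated more with labelled KO 3 than with labelled KO 2 (0.46, 0.50 and 0.43), so only number 1 stood out, and the labels do not say what a number marks. The scripts were tested on simulated data.

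The 10 genes and the lists were chosen with earlier results of these data known. The rule for named genes took the 10 genes, listed genes called by edgeR, the genes of the most similar profile (mean of at least 20 CPM over clusters) and Itgb7. Gene positions come from GENCODE M21 and promoters from RefSeq. In the summed counts of a class, fewer cells and less RNA per cell of a subtype cannot be told apart. Intervals and limits cover counting error only.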

Additional observations from a re-analysis of the deposited data

Results flagged for a closer look

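Between cell classes, Dll4 was the 1 gene whose libraries labelled Itgb7 KO lay above all wild-type libraries in one class (goblet-like) and below all of them in another (stem-like). The difference between these contrasts was 0.51 on the log2(CPM + 1) scale (exact 2-sided permutation test over libraries, p = 0.1, the smallest that 3 against 3 libraries allow). It was 1 of 150 comparisons of a gene between classes, the stem-like values rest on 6 to 20 UMIs per library, and the stem-like fold change turned from −0.46 to 0.0852 with clusters built without the 10 genes and the lists.

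Between genotypes, 2 of the 20 pairs had opposite signs in all wild-type and all labelled KO libraries. The share of goblet-like cells with Hes1, in cells with Atoh1 minus cells without, was higher by 5.79 percentage points in the labelled KO libraries (exact 2-sided permutation test, p = 0.1, not adjusted). The share of TA-like cells with Dll4, with Dll1 minus without, was higher by 3.36 points there, but this value rests on single cells: Dll4 was found in 0 of 10, 0 of 39 and 0 of 26 cells with Dll1 in wild-type and in 1 of 23, 1 of 40 and 1 of 44 in labelled KO libraries, and nothing is read from its sign.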

How the results depend on the processing

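None of the 10 genes was called in any class under any alternative run. The smallest edgeR adjusted p was 0.149 over stem-like, TA-like, goblet-like, Paneth-like, Neurog3-led and all kept cells, the groups in which it was sought. Counts of all genes called in stem-like, TA-like, goblet-like, Paneth-like, enteroendocrine-like, lower-villus, mature enterocyte-like and all kept cells (0, 1, 1, 0, 0, 1, 0 and 1 as reported) moved. DESeq2 called 3, 11, 20, 7, 11 and 26 in stem-like, TA-like, goblet-like, lower-villus, mature enterocyte-like and all kept cells. With no filter on low counts they were 1 (stem-like), 2 (TA-like), 6 (goblet-like), 8 (Paneth-like) and 2 (lower-villus). The replicate block gave 1, 2, 1, 1 and 2 (stem-like, goblet-like, Paneth-like, enteroendocrine-like, lower-villus), and in the units set after the clusters were seen 10 (Neurog3-led), 9 (Lgr5-led), 1 (Atoh1-led) and 3 (other goblet-like) against 0, 0, 0 and 1; it called none of the 10 genes. The library number block gave 1, 2, 2, 1, 3, 5, 2 and 4. Keeping doublets gave 1 and 0 (stem-like, TA-like), and clusters built without the 10 genes and lists 1 (stem-like). With each library left out in turn, the counts ran from 0 to 2 in stem-like and from 0 to 1 in TA-like, goblet-like, lower-villus and all kept cells.

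Of log2 fold changes, 13 of 327 values reversed. These were Atoh1 in stem-like (−0.35) and Paneth-like cells (0.11) with doublets kept, and Atoh1 (0.0707) and Foxa3 (−0.0033) in Paneth-like cells with the replicate block. Atoh1 in Paneth-like cells was 0.0771 with the library number block, Foxa3 −0.0367 with no filter and −0.11 with cells of at least 5000 UMIs, and Hes6 in goblet-like cells −0.0079 with no filter. With clusters built without the genes, Dll4 was 0.0852 in stem-like cells and Atoh1, Dll1, Dll4 and Spdef in the Neurog3-led cells were −0.37, −0.16, −0.57 and −0.47. With 1 library left out, signs were not fixed in stem-like cells for Atoh1 (−0.12 to 0.19), Hes6 (−0.20 to 0.0016) and Jag1 (−0.22 to 0.91), and in TA-like cells for Atoh1 (−0.34 to 0.12) and Foxa3 (−0.0370 to 0.18). In goblet-like cells the same held for Gfi1 (−0.0615 to 0.53), Hes6 (−0.05 to 0.0649) and Notch1 (−1.24 to 0.21). In Paneth-like cells the ranges were −0.59 to 0.27 for Atoh1, −0.33 to 0.76 for Dll1, −0.32 to 0.45 for Spdef, −0.16 to 0.35 for Hes1 and −0.29 to 0.34 for Foxa3. In the Neurog3-led cells they were −0.0891 to 0.43 for Dll1, −0.0200 to 0.29 for Dll4 and −0.18 to 0.41 for Spdef.

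Thinning to 6000 UMIs moved the labelled KO minus wild-type shares of Dll4 (−1.27), Gfi1 (−0.171) and Notch1 (−4.19 percentage points) in stem-like cells, of Atoh1 (−0.051), Dll4 (−0.445) and Notch1 (−2.96) in TA-like cells and of Dll4 in goblet-like cells (1.95). That of Gfi1 in TA-like cells was −0.0866 with clusters built without the genes. Of pair differences 15 of 60 values reversed. With doublets kept, Hes1 by Hes6 in stem-like cells was −0.0537 points, Hes1 by Dll1 and by Jag1 in TA-like cells 5.15 and −3.28, and Hes1 by Dll1, Dll4 and Atoh1, Dll4 by Atoh1, Gfi1 by Atoh1 and Dll4 by Dll1 in goblet-like cells 0.00290, 0.849, 0.670, 0.121, −1.26 and 0.601. At 6000 UMIs, Hes1 by Dll1 in TA-like cells was 2.505, and Hes1 by Dll4, Hes6 by Atoh1 and Dll4 by Dll1 in goblet-like cells 2.00, 2.23 and 0.0519. With clusters built without the genes, Notch1 by Dll1 in TA-like cells was −0.373 and Dll4 by Dll1 in goblet-like cells 0.0775. With 1 library left out, Hes1 by Jag1 in TA-like cells ran from −2.62 to 4.32, and Hes6 by Atoh1, Dll4 by Dll1 and Notch1 by Dll1 in goblet-like cells from −0.671 to 0.393, −0.684 to 0.604 and −0.435 to 0.576. For all of these the cause was not tested. The values within the pair of libraries that stood apart, and the Neurog3-led and Atoh1-led units, were chosen after seeing the data. Precision is limited by 6 libraries, by 21 to 96 Paneth-like cells per library, and by few UMIs of Dll4, Gfi1 and Notch1 per cell.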
